A study of Mus musculus with 20 samples.

Results

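The genes described here are 40 protein-coding genes of DNA replication and mitosis, chosen by name from a table of 24411 genes and followed across 20 bulk RNA-seq libraries of mouse cerebellar granule neuron cultures. All 40 symbols were found, and all 40 were among the 15284 genes that passed the expression filter. The cultures were infected 1 day after plating in vitro, treated on day 2 with AraC (cytosine arabinoside) and harvested on day 7. There were 4 groups of 5 libraries, numbered 1 to 5 in each. The control group is labelled only as control, and the virus it received, if any, is not given. The knockdown group carried an shRNA against mouse Kdm6b. The active rescue and dead rescue groups carried the same shRNA together with a human KDM6B enzymatic domain, active in the one and catalytically dead in the other. AraC is described for all cultures, so no group lacks it and its own effect cannot be read from these libraries. Mouse strain and age are not stated. Nor do the labels say that the 5 libraries of a group came from separate cultures or animals, so the p-values measure the spread between these libraries, which may be technical.

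Granule neurons are the small excitatory neurons of the cerebellar cortex. They arise after birth from progenitors of the external granule layer that divide under Sonic hedgehog and then leave the cell cycle for good. Cultures of them also hold glia, meningeal fibroblasts and other cells that go on dividing, and AraC, a cytidine analogue that stops DNA synthesis once built into a growing strand, is added to remove such cells. In a dividing cell, E2F factors released from the retinoblastoma proteins turn on replication genes before S phase. MuvB complexes with B-Myb (Mybl2) and FoxM1 turn on mitotic genes later, through CHR and CCAAT elements in their promoters. Kdm6b removes methyl groups from lysine 27 of histone H3.

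By role, the 40 members are 9 genes of the helicase and fork (Mcm2 to Mcm7, Cdc6, Cdc45 and Pcna), 4 of nucleotide supply (Rrm1, Rrm2, Tyms and Tk1) and the proliferation markers Mki67 and Top2a. The cyclins and kinases are Ccne1, Ccne2, Ccna2, Cdk1 and Cdk2, the B cyclins Ccnb1 and Ccnb2 and the D cyclins Ccnd1 and Ccnd2. For mitosis there are 7 kinases and checkpoint genes (Plk1, Aurka, Aurkb, Bub1, Bub1b, Birc5 and Cdc20) and 6 of spindle and kinetochore (Cenpe, Cenpf, Kif11, Kif20a, Nusap1 and Tpx2). The transcription factors are Foxm1, E2f1 and Mybl2.

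Library totals ran from 14200700 to 21179300 estimated counts and 16873 to 17351 genes had a count. Levels are given as CPM (counts relative to the scaled library total) after TMM scaling. Kdm6b itself stood at 141, 171, 139, 81.2 and 187 CPM in controls 1 to 5 and at 99.4, 112, 89.3, 37.9 and 76.4 CPM in knockdown libraries 1 to 5, lower within every number. In the rescue libraries it ranged from 54.9 to 312 CPM, where reads of the human domain and of the mouse gene cannot be told apart in this count. The labelled cell type was checked against its markers. Neurod1, a transcription factor of granule neurons, ranged from 92.1 to 746 CPM and Gabra6, a GABA-A receptor subunit of mature granule cells, from 34.7 to 275 CPM. Of 8 markers of granule cell progenitors, Atoh1, which defines the dividing progenitor, had 38 counts in all 20 libraries together and never exceeded 0.536 CPM, and Gli1, a target of Sonic hedgehog, reached at most 3.72 CPM. The other 6 passed the expression filter, among them Ptch1, the Sonic hedgehog receptor (2.60 to 88.8 CPM), and Barhl1 (24.9 to 82.3 CPM), and summed to 162 to 281 CPM. The astrocyte protein Gfap ranged from 502 to 5480 CPM and the fibroblast collagen Col1a1 from 1059 to 7778 CPM, so transcripts of other cell types were found in every library. Endothelial markers summed to 63.0 to 194 CPM, mostly Cdh5 (40.1 to 143 CPM), while Cldn5 had 122 counts in all. Interneuron and Purkinje markers summed to 127 to 391 CPM, with Gad1 at 51.1 to 228 and Calb1 at 3.71 to 13.0 CPM, while Pcp2 had 0 counts. In bulk RNA, fewer cells of a type and less RNA per cell cannot be told apart.

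Promoter sequence was available for 31 of the 40 members in RefSeq (GRCm38.p6), and 4 examples are printed because they show how differently these genes' upstream regions are built. Each is the 250 bases before the annotated start, 5′ to 3′ on the gene's strand. Capitals mark a match, on either strand, to E2F words (TTTCCCGC, TTTCGCGC, TTTGCCGC or TTTGGCGC), CHR words (TTTGAA or TTCGAA) or CCAAT. Matches on opposite strands may overlap.
Mcm6: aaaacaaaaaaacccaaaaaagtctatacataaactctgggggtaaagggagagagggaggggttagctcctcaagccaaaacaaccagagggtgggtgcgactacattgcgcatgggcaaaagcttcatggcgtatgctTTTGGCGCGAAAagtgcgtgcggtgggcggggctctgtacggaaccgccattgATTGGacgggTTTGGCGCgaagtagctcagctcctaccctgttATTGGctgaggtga
Cdk1: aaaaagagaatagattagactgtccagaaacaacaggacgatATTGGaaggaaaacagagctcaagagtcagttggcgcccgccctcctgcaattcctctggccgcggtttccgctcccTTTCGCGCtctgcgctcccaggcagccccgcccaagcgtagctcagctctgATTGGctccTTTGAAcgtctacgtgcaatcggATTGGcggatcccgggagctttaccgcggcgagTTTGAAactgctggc
Top2a: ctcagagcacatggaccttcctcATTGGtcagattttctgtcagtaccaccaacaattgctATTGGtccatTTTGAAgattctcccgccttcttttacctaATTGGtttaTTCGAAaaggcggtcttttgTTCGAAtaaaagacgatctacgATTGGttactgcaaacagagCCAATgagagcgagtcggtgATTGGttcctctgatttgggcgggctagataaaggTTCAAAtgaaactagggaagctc
Rrm2: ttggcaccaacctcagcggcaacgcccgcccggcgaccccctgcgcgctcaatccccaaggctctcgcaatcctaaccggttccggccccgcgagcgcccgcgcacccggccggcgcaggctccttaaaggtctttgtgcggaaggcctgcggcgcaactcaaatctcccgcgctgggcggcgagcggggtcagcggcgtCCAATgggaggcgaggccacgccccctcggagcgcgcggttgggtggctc
The first lies at chr1:128359706-128359955 on the minus strand and belongs to Mcm6, a subunit of the replicative helicase. It holds 3 E2F matches, 2 of them overlapping on opposite strands, and 2 CCAAT boxes but no CHR word. That of Cdk1, the kinase that starts mitosis, at chr10:69352913-69353162 on the minus strand, holds 1 E2F, 2 CHR and 3 CCAAT matches. For Top2a, the topoisomerase that untangles sister chromatids, the window at chr11:99024190-99024439 on the minus strand holds 4 CHR and 6 CCAAT matches and no E2F word. The window of Rrm2, at chr12:24708004-24708253 on the plus strand, holds 1 CCAAT box and neither of the other words. Among the 31 members, an E2F word was found in 6, or 19.4%, against 1.86% of all 32851 promoters in the table. CHR words were found in 10, or 32.3%, against 17.1%, and CCAAT in 23, or 74.2%, against 33.8%. A member counted if any of its annotated windows matched, as for Mcm7, while the share of all promoters counts each window separately. The 10 with a CHR word all held CCAAT as well, and 7 members (Birc5, Ccne1, E2f1, Mybl2, Nusap1, Tk1 and Tyms) held none of the 3 kinds. A match describes the letters only. The start used is that of RefSeq. In the GENCODE annotation of GRCm38, the windows of E2f1, Cdc6 and Mcm7 lie inside the gene. Those of some others, Cdk1, Rrm2, Ccne1 and Tk1 among them, overlap it. For E2f1 the absence of a word thus does not describe the bases before its GENCODE start. The members outside the table were Aurkb, Ccna2, Ccnd1, Ccnd2, Ccne2, Foxm1, Kif20a, Mcm4 and Tpx2.

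Per kilobase of exon (GENCODE annotation of GRCm38), the D cyclins were the most abundant members in controls. Ccnd1 stood at 67.8 ± 15.0 CPM per kb and Ccnd2 at 37.3 ± 16.2 CPM per kb (SD, n = 5). Both encode partners of Cdk4 and Cdk6 that act at the entry to the cycle. The sliding clamp Pcna followed at 30.2 ± 5.75, then Cdc20, the activator of the anaphase-promoting complex, at 20.2 ± 11.1 and Rrm2 at 16.4 ± 7.44 CPM per kb. The other 35 members had mean levels below that of Rrm2, down to 1.10 ± 0.451 CPM per kb for Cdc6, which loads the helicase. The ranges of neighbours among these 5 genes overlapped over the controls, so their order is not firm. The proliferation antigen Mki67 had 19.8 to 121 CPM across the controls, so transcripts of the cycle were still measured on day 7 in libraries that had received AraC.

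**Figure D1:**
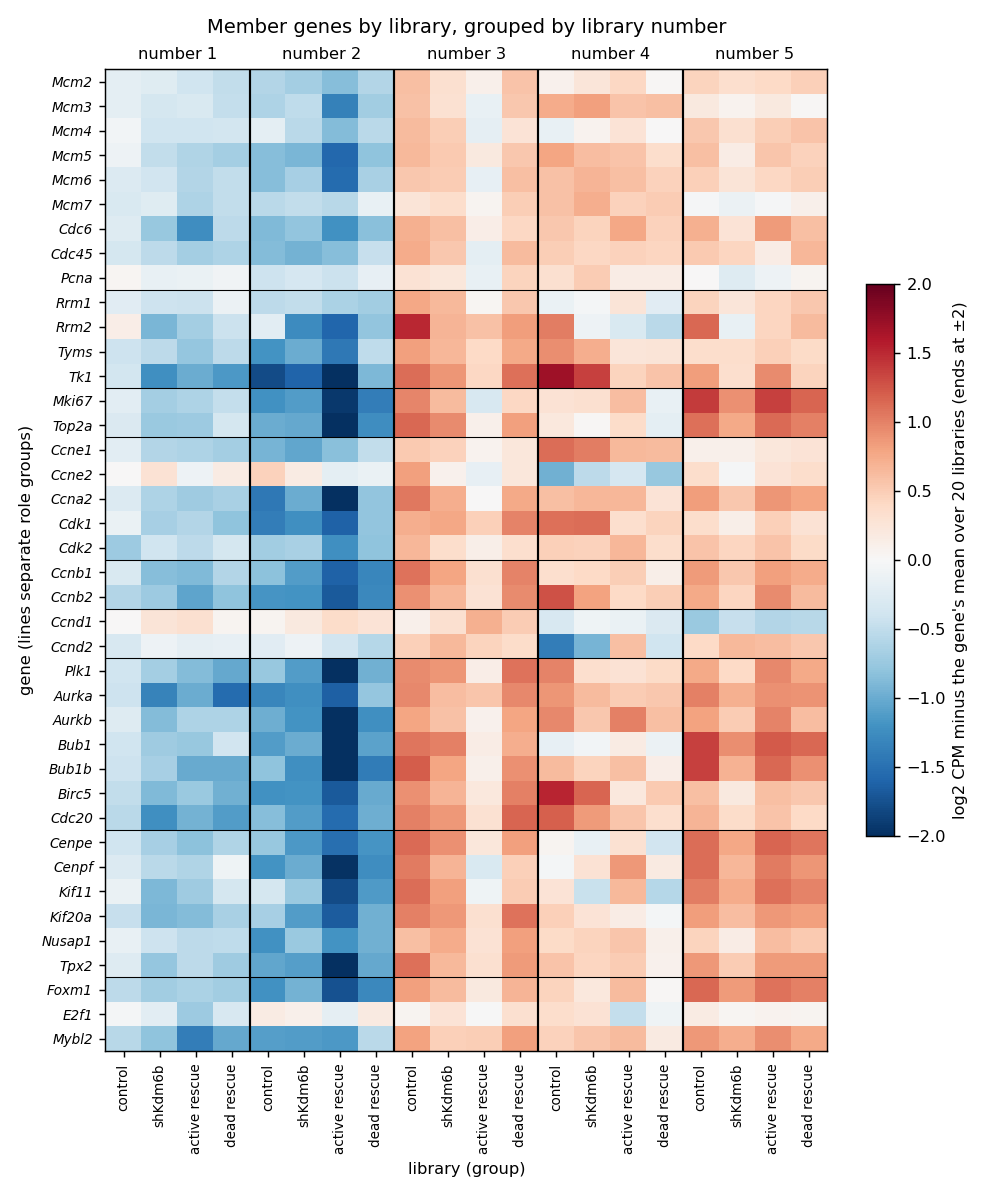
Level of each of the 40 member genes (rows, ordered by role) in each of the 20 libraries (columns, ordered by library number and then group), as log2 CPM relative to the gene's own mean. Libraries numbered 1 and 2 are low for most rows, and the lowest column is active rescue 2. The D cyclins, Ccne2 and E2f1 do not have their lowest mean in number 2.

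Library number, not group, carried most of the difference in these genes. Number accounted for a median of 89.0% of the variance in log2 CPM over the 40 members, from 39.7% for E2f1 to 94.6% for Foxm1, and group for a median of 3.47%. Over all genes tested, the medians were 71.7% for number and 4.26% for group. With group held constant, 40 of 40 members differed among numbers in edgeR's quasi-likelihood F test at an adjusted p under 0.05, against 84.7% of all genes. What the numbers stand for is not stated, so each is described by its values only.

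Number 2 was the lowest for most members, and number 1 was low as well. Against the mean of the other 4 numbers, 36 members were lower and 1 higher in number 2, with a median log2 difference of -1.28, where 21.7% of all genes were lower and 21.2% higher. In number 1, 35 were lower and 1 higher, with a median of -0.68, against 16.6% and 16.7% of all genes. The other numbers were the high ones. Number 3 had 38 members higher and 0 lower with a median of 0.73, against 14.8% of all genes higher. In number 4, 27 were higher and 3 lower (median 0.53), against 34.4% and 36.2% of all genes. In number 5, 33 were higher and 1 lower (median 0.65), against 27.4% and 20.2%. Number 2 had the lowest mean of the 5 for 36 of 40 members, and active rescue 2 was the single lowest library for 29. The highest number was shared out, with 12 members at their highest in number 3, 12 in number 4 and 16 in number 5.

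Among replication factors, the MCM helicase subunits Mcm2 to Mcm7 and the helicase activator Cdc45 were lowest in number 2. Mcm6 stood at 32.9, 22.1, 57.6, 59.5 and 55.5 CPM in controls 1 to 5, and its lowest library was active rescue 2, at 13.7 CPM. Pcna was flatter, at 70.7, 51.9, 84.2, 86.2 and 69.4 CPM in controls 1 to 5, 62.05, 55.1, 81.2, 98.5 and 58.1 in the knockdown, 63.2, 51.2, 62.7, 76.9 and 64.5 in active rescue and 66.2, 61.7, 93.7, 76.4 and 72.2 in dead rescue. Its highest number was 1.54 times its lowest. Besides replication, Pcna also serves DNA repair.

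Genes of nucleotide supply varied more. Tk1, the thymidine kinase of S phase, ranged 6.24-fold between the mean of its highest number and that of its lowest. Rrm1, the large subunit of ribonucleotide reductase and the most abundant gene of this role in CPM, stood at 68.4, 55.4, 136, 72.6 and 109 CPM in controls 1 to 5 and at 59.9, 56.5, 125, 77.7 and 94.00 in the knockdown. In active rescue it stood at 59.4, 51.5, 81.8, 94.8 and 108 CPM and in dead rescue at 73.1, 49.5, 116, 68.2 and 115. Numbers 1 and 2 were the low ones in active rescue, and numbers 3 and 5 the high ones in the other 3 groups.

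The markers of cycling cells followed number as well. Mki67 stood at 39.7, 19.8, 89.95, 55.9 and 121 CPM in controls 1 to 5 and at 28.6, 21.1, 70.9, 57.2 and 86.2 CPM in the knockdown. In active rescue it stood at 29.9, 11.98, 36.6, 70.3 and 118 and in dead rescue at 32.9, 17.6, 61.3, 41.5 and 102 CPM. Number 5 was the highest and number 2 the lowest in each group, and the highest number mean was 6.06 times the lowest. Top2a read 50.2, 30.95, 137, 71.1 and 132 CPM in controls, 36.8, 30.1, 118, 62.4 and 104 in the knockdown, 37.1, 14.6, 65.8, 79.4 and 134 in active rescue and 47.9, 25.8, 109, 53.5 and 123 in dead rescue, a 4.86-fold range of number means. The 4 groups overlapped for both genes.

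The later cyclins and the spindle genes were as variable. Ccna2, the cyclin of S and G2 phase, read 22.5, 10.1, 56.4, 41.6 and 48.8 CPM in controls and 16.7, 5.45, 27.3, 43.2 and 50.5 in active rescue. Its knockdown values were 17.7, 13.8, 45.3, 43.3 and 39.6 CPM and its dead rescue values 17.4, 15.9, 46.1, 32.97 and 47.00 CPM. Ccnb1, which drives Cdk1 at mitosis, read 15.5, 10.8, 40.5, 24.1 and 34.6 CPM in controls, 10.6, 8.77, 32.8, 25.1 and 27.9 in the knockdown, 10.3, 6.19, 23.7, 26.8 and 33.9 in active rescue and 12.7, 7.75, 37.99, 20.6 and 31.9 in dead rescue. Numbers 1 and 2 were again the low ones in all 4 groups for both cyclins. Cdc20 read 18.1, 14.6, 53.3, 60.6 and 42.2 CPM in controls and 11.3, 12.2, 48.2, 47.8 and 33.98 in the knockdown, and 13.7, 9.11, 32.6, 38.8 and 39.3 in active and 12.2, 13.4, 59.2, 33.5 and 34.98 in dead rescue. Tpx2, the spindle factor that activates Aurka, read 25.5, 14.9, 65.3, 45.2 and 55.4 CPM in controls, 17.9, 14.3, 47.96, 41.1 and 43.2 in the knockdown, 21.2, 6.83, 38.3, 43.3 and 54.98 in active rescue and 18.6, 15.1, 55.1, 32.3 and 55.1 in dead rescue. For both, no library numbered 1 or 2 reached the level of any library numbered 3, 4 or 5.

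The 28 members not listed library by library lay between 1.78 CPM (Aurkb in active rescue 2) and 65.5 CPM (Mcm7 in knockdown 4). The D cyclins, Ccne2 and E2f1, 4 of the 40 members, did not have their lowest mean in number 2. Against the mean of the other 4 numbers, Ccnd2 was still below in numbers 1 and 2 (log2 difference -0.28 and -0.41), though not called. E2f1 was lower in number 1 (-0.41), and called there. Ccnd1 was lowest in number 5, where most other members were high, with 354, 368, 378, 283 and 212 CPM in controls 1 to 5 and 422, 404, 439, 332 and 257 in the knockdown. In active rescue it stood at 439, 453, 576, 321 and 236 and in dead rescue at 368, 429, 503, 288 and 239.6 CPM. Ccnd2, which is also expressed in postnatal granule cell progenitors, was lowest in number 4 in the control and knockdown groups, with 296, 316, 514, 141 and 487 CPM in controls and 342, 344, 577, 193 and 579 in the knockdown. Its active rescue values were 324, 284, 499.7, 560.1 and 562 CPM, so active rescue 4 stood apart from the other libraries of that number, and its dead rescue values were 328, 248, 475, 279 and 532 CPM. Ccne2, a partner of Cdk2 at the start of S phase, was lowest in number 4, with 7.26 to 11.2 CPM there. E2f1, the activator of S-phase genes, ranged from 20.7 to 43.6 CPM over all libraries, and its highest number mean was 1.38 times its lowest.

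**Figure D2:**
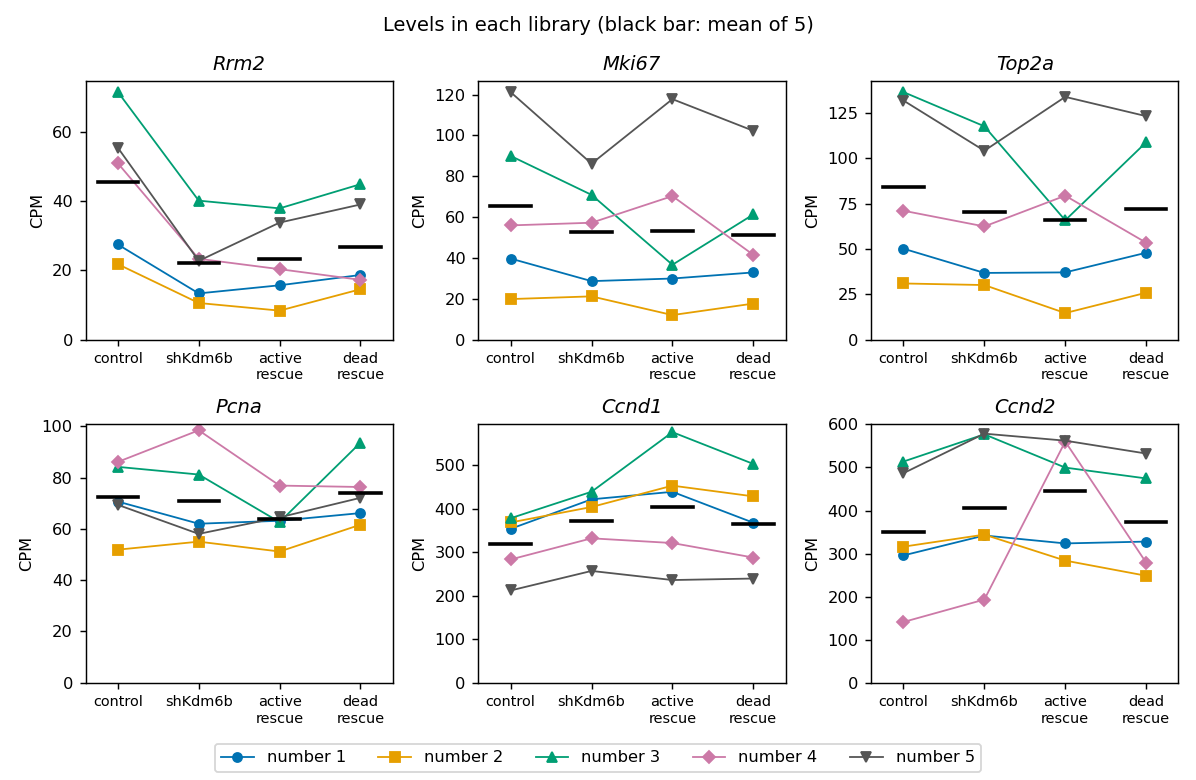
CPM of named members in each library (points joined by library number) by group, with black bars at the mean of 5 and the axis starting at 0. Number 2 is the lowest line in every group for Rrm2, Mki67 and Top2a, and Rrm2 sits lower in the 3 shRNA groups at every number.

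Cell type markers also differed between numbers. Beside the 38 members other than the D cyclins, whose summed level averaged 673, 516, 1364, 1192 and 1380 CPM in numbers 1 to 5, the summed level of 11 fibroblast and meningeal markers averaged 7144, 5532, 16081, 7617 and 28718 CPM. That of 12 astrocyte markers averaged 5420, 3966, 3093, 9466 and 1691 CPM. Fibroblast markers were thus lowest in number 2 and highest in number 5, while astrocyte markers were highest in number 4 and lowest in number 5. Endothelial sums (77.4, 71.6, 156, 117 and 183 CPM) and oligodendrocyte lineage sums (542, 119, 525, 493 and 900 CPM) were also lowest in number 2 and highest in number 5. Microglial sums and interneuron and Purkinje sums were highest in number 1. Sums of progenitor and unipolar brush cell markers were highest in number 5 but not lowest in number 2. Summed granule neuron markers (10 genes) averaged 5146, 5976, 4032, 2181 and 4713 CPM, with number 2 highest and number 4 lowest. The ranges within a number were 5042 to 6152 CPM for the fibroblast sum in number 2 and 24808 to 32256 CPM in number 5. The part of any cell type in the members' differences between numbers was not tested.

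**Figure D3:**
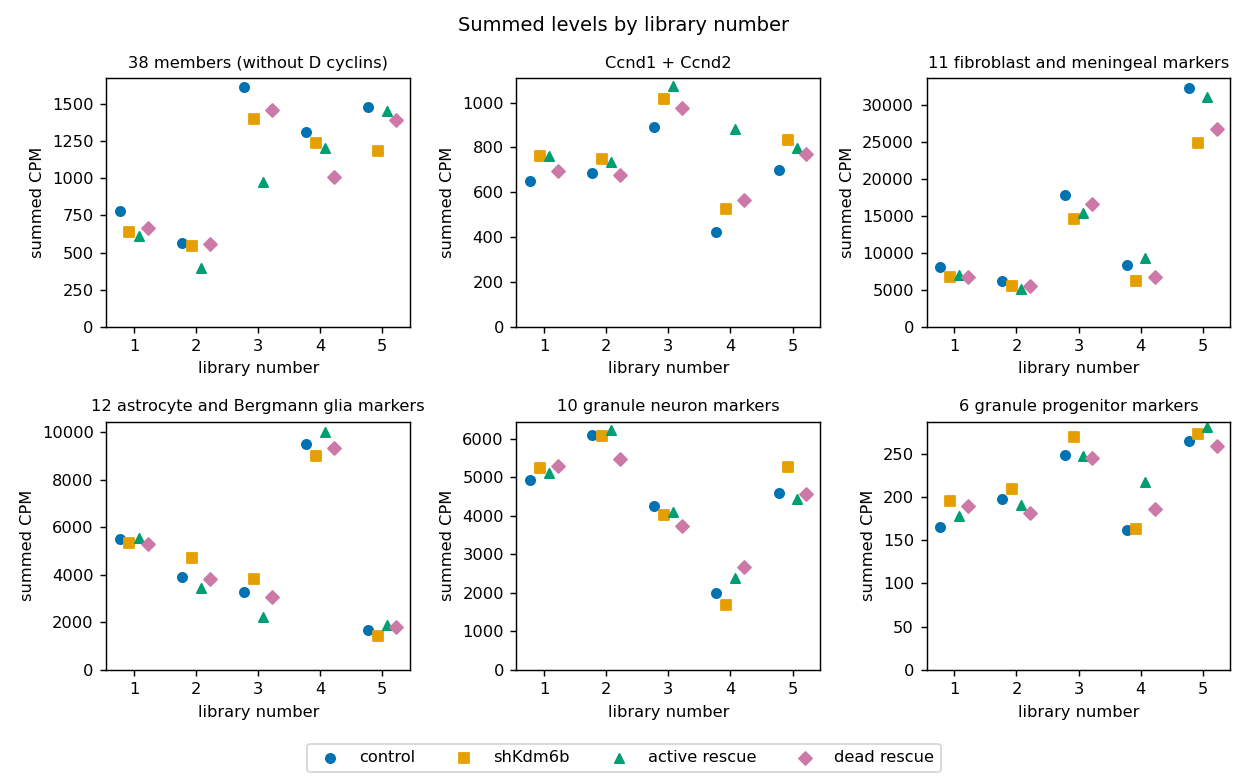
Summed CPM of the 38 members without the D cyclins, of the D cyclins and of cell type marker lists, by library number, 1 point per library coloured by group, with each axis starting at 0. The member sum is low in numbers 1 and 2, the fibroblast sum is highest in number 5 and the astrocyte sum in number 4.

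Whether Kdm6b knockdown, alone or with a rescue domain, altered these genes was asked by 6 comparisons between groups. Those against control share the 5 control libraries, and those against the knockdown share the 5 knockdown libraries. Without regard to library number, 0 of 40 members passed an adjusted p of 0.05 in any of the 6, by edgeR's quasi-likelihood test. The share of all genes called was 0.00654% for knockdown against control and 0% in each of the other 5. At an unadjusted p under 0.05 there was 1 member for knockdown against control, 2 for active rescue against control, 1 for active rescue against knockdown and 0 for the other 3. The share of all genes under that p was 3.12%, 2.53% and 0.327% in those comparisons, 1.81% for dead rescue against control, 0.164% for dead rescue against knockdown and 0.242% for active against dead rescue. DESeq2 without the number also called 0 members in all 6, beside 0.428%, 0.202% and 0.111% of all genes for the knockdown, active rescue and dead rescue against control and 0% in the other 3. Most members were nonetheless lower on average in the 3 shRNA groups than in controls. Fitted log2 fold changes were negative for 37 of 40 members in the knockdown (median -0.20), 38 in active rescue (median -0.31) and 35 in dead rescue (median -0.17). The median over all genes was 0.01, -0.01 and -0.01 in the same comparisons, and 52.4%, 47.6% and 47.1% of all genes were positive. The members varied together by number, so their signs are not separate observations. Within numbers 1 to 5, 5, 20, 6, 18 and 4 of the 40 members were higher in the knockdown than in control. The control group had the highest mean for 35 of 40 members, and these comparisons are not independent of each other because the controls are the same libraries. No share over all genes is given for that count or for the counts within numbers, so neither can be set against all genes.

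Since libraries of one number deviated together, each comparison was also made within numbers (the paired fit). Then 1 member, Rrm2, was lower in the knockdown than in controls at an adjusted p under 0.05, beside 2.41% of all genes lower and 4.14% called in either direction. Rrm2 was also the 1 member lower in active rescue than in controls, where 0.87% of all genes were lower and 1.96% called. It was the 1 member lower in dead rescue, where 0.608% were lower and 1.18% called. In the paired fit 0 members were called for active rescue against knockdown, dead rescue against knockdown or active against dead rescue, with 0.00654%, 0% and 0.00654% of all genes called. The number of members at an unadjusted p under 0.05 in those 3 was 2, 0 and 5, beside 3.78%, 1.4% and 2.72% of all genes. Against control it was 5 for the knockdown, 20 for active rescue and 4 for dead rescue, beside 14.9%, 13% and 10.7% of all genes. DESeq2 with the number called 1, 6 and 1 members against control, in that order of groups, beside 6.3%, 4.08% and 2.98% of all genes. Counted by pairs of the same number, 13, 9 and 9 members were lower than control in 5 of 5 pairs, beside 11.9%, 4.51% and 5.65% of all genes.

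**Figure D4:**
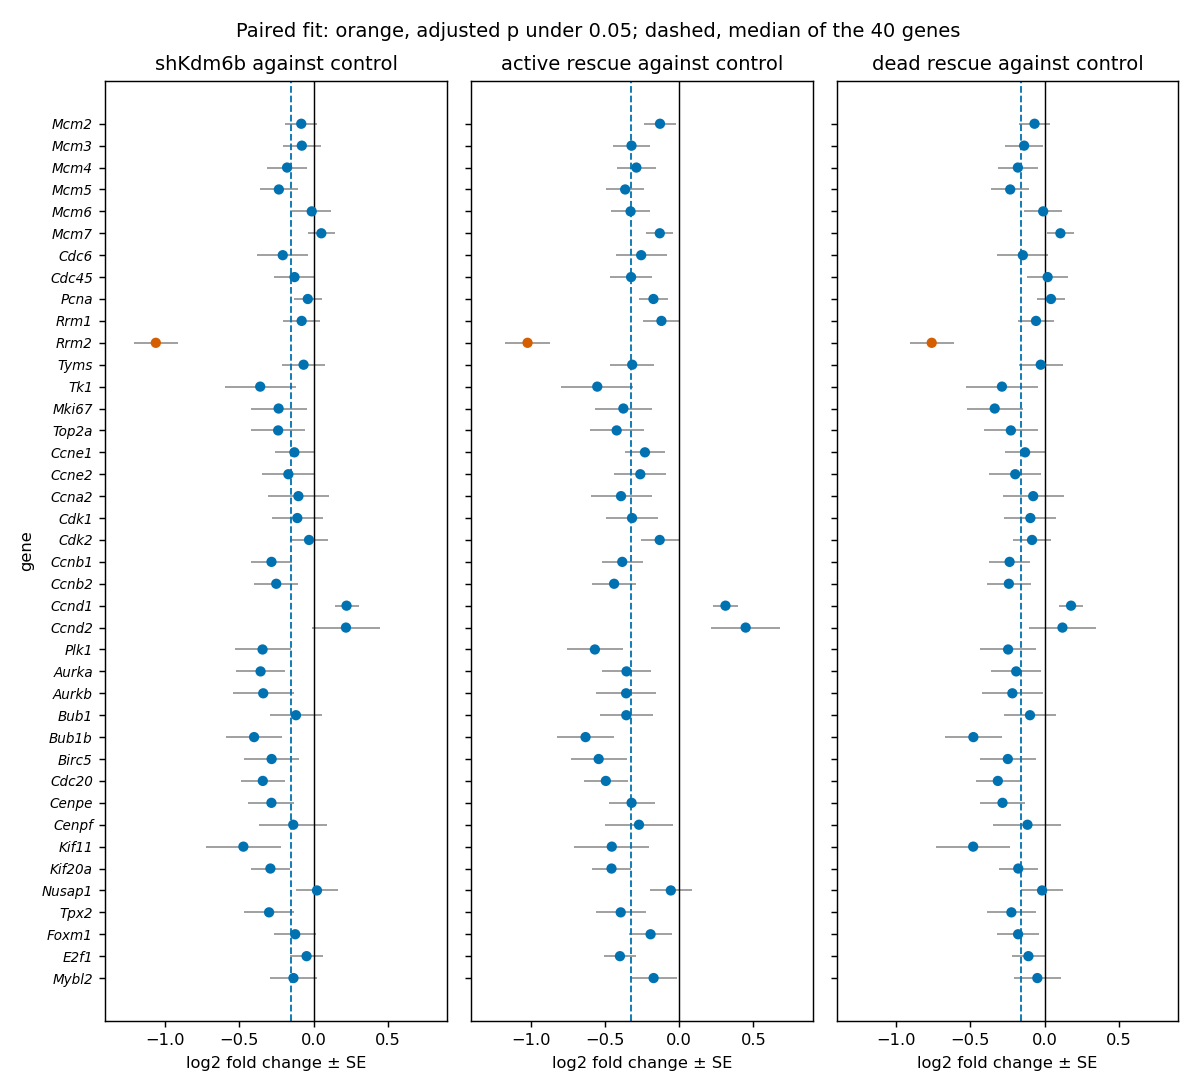
Log2 fold change of each member against control in the paired fit (points) with its standard error (bars) for the knockdown, active rescue and dead rescue, in order of role, with the dashed line at the members' median. Rrm2 is the lowest point in each panel, at -1.06, -1.02 and -0.76, and both D cyclins lie to the right of 0.

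Rrm2 encodes the small subunit of ribonucleotide reductase, which makes deoxyribonucleotides for replication and is held low outside S phase. Its annotated span is chr12:24708241-24714146, plus strand (GRCm38). It stood at 27.5, 21.8, 71.7, 51.02 and 55.5 CPM in controls 1 to 5, with a mean of 45.5 ± 20.6 CPM (SD, n = 5). The knockdown libraries read 13.4, 10.6, 40.2, 23.4 and 22.8 CPM, with a mean of 22.1 ± 11.6 CPM (SD, n = 5). Active rescue read 15.7, 8.37, 37.97, 20.4 and 33.9 CPM and dead rescue 18.7, 14.6, 44.97, 17.3 and 39.1 CPM, with means of 23.3 ± 12.4 CPM (SD, n = 5) and 26.9 ± 14.03 CPM (SD, n = 5). Within every number all 3 shRNA groups were below the control, although the ranges of the groups overlapped. Number 3 was the highest of the 5 in all 4 groups.

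In the paired fit Rrm2 was lower in the knockdown by a log2 fold change of -1.06 ± 0.15 (SE; 95% interval -1.38 to -0.75; adjusted p = 0.000637), which is 0.479 times the control. The differences within numbers 1 to 5 were -1.04, -1.04, -0.83, -1.12 and -1.28 on the log2 CPM scale, lower in 5 of 5 pairs. Active rescue differed from control by -1.02 ± 0.15 (adjusted p = 0.00227, lower in 5 of 5 pairs) and dead rescue by -0.76 ± 0.15 (adjusted p = 0.0177, lower in 5 of 5 pairs). Without the number, the same contrast between knockdown and control was -1.04 ± 0.46, with an unadjusted p of 0.0335 and an adjusted p of 1.00. Leaving out any 1 of the 10 libraries compared kept the call for the knockdown and for active rescue in the paired fit. For dead rescue it was lost without control 2 or without dead rescue 3, with an adjusted p of up to 0.0670. Leaving out a whole number kept it for the knockdown and for active rescue in 5 of 5 cases and for dead rescue in 1 of 5. No difference between the shRNA groups was detected. Active rescue differed from the knockdown by 0.04 on the log2 scale (95% interval -0.27 to 0.36), dead rescue from the knockdown by 0.30 (-0.02 to 0.62) and active from dead rescue by -0.26 (-0.57 to 0.05). These intervals do not show that the groups are alike.

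The other genes of nucleotide supply did not pass in the paired fit. Knockdown against control had a median of -0.22 over the 4 genes of that role, from -1.06 for Rrm2 to -0.07. Rrm1, whose product pairs with that of Rrm2, was at 88.2 ± 33.2 CPM (SD, n = 5) in controls and 82.6 ± 28.01 CPM (SD, n = 5) in the knockdown. Among 13 tested genes for the uptake and handling of cytidine analogues and nucleotides, including Dck, which phosphorylates AraC, and Rrm2b, the ribonucleotide reductase subunit used outside S phase, 0 of 13 passed in any of the 6 comparisons in either fit. Their medians in the paired fit were -0.01, -0.04 and 0.03 for the knockdown, active rescue and dead rescue against control. The same held for 20 p53 targets, of which 0 passed, with medians of 0.12, 0.13 and 0.09 and 15, 18 and 16 of 20 on the positive side. Of all genes, 52.1%, 53.8% and 50.9% were on that side in the paired fit. The summed p53 targets were higher than control in 3, 4 and 3 of 5 pairs.

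Cell type markers moved with the shRNA groups in places, and these values stand beside the Rrm2 result. Microglial markers were lower in the knockdown in 12 of 12 genes by sign, with 1 passing (Tmem119, -0.67 ± 0.17, adjusted p = 0.0293 in edgeR's paired fit). Their summed level ranged from 301 to 1796 CPM in controls and from 329 to 785 CPM in the knockdown, with 263 to 926 in active and 330 to 856 CPM in dead rescue. The highest of these was control 4, at 1796 CPM against 371 to 656 in the other libraries of that number. The microglial sum was lower than control in 3 of 5 pairs in the knockdown, 3 of 5 in active rescue and 2 of 5 in dead rescue. Of all genes, 52.1% had a positive fold change in the knockdown in the paired fit. Of 11 fibroblast and meningeal markers 0 passed in these 3 comparisons. Their sum was 8051, 6152, 17792, 8309 and 32256 CPM in controls 1 to 5 and 6769, 5462, 14525, 6242 and 24808 CPM in the knockdown, lower in 5 of 5 pairs. It was also lower in 5 of 5 pairs in dead rescue and in 4 of 5 in active rescue. Of 12 oligodendrocyte lineage markers 1 passed, Cspg4 in the knockdown (-0.59 ± 0.14, adjusted p = 0.0233), and of 12 astrocyte markers 0. Of 10 granule neuron markers 3 fell in the knockdown, Grin2c (-1.47 ± 0.28), Etv1 (-1.02 ± 0.18) and Cbln3 (-0.77 ± 0.13), and 1 rose, Pax6 (0.41 ± 0.11). Grin2c and Etv1 also fell in dead rescue (-1.22 ± 0.27 and -0.81 ± 0.18), and 0 of the 10 passed in active rescue. Of 8 interneuron and Purkinje markers tested, Gad1 (-0.60 ± 0.11) and Slc32a1 (-0.29 ± 0.07) fell and Pax2 (1.05 ± 0.22) rose in the knockdown. In active rescue Gad1 fell (-0.47 ± 0.11) and Pax2 rose (1.04 ± 0.22), and in dead rescue 0 passed. Barhl1, a factor of granule cell progenitors and young granule cells, rose in the knockdown by 0.98 ± 0.13, in active rescue by 0.77 ± 0.13 and in dead rescue by 0.90 ± 0.13, as the 1 of 6 progenitor markers tested that passed. The adjusted p of these granule, interneuron and progenitor marker calls in edgeR's paired fit ran from 0.000355 to 0.0426. Of all genes, 4.14%, 1.96% and 1.18% were called in the knockdown, active rescue and dead rescue against control. Summed progenitor markers were higher than control in 5, 3 and 2 of 5 pairs, in that order. Summed interneuron and Purkinje markers were lower in 5, 4 and 4 of 5 pairs, and summed granule neuron markers in 3, 2 and 3. The part of any of these markers in the fall of Rrm2 was not tested.

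The helicase and fork genes did not pass in any comparison in the paired fit. Against control their median over 9 genes was -0.08 in the knockdown, -0.29 in active rescue and -0.07 in dead rescue. A list of 46 other replication genes, such as the origin recognition subunits, polymerases and replication factor C, gave 0 passing and medians of -0.08, -0.15 and -0.06. The cyclins and kinases of late G1 and S phase (5 genes) had medians of -0.11, -0.26 and -0.10, with 0 passing.

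Most mitotic genes were on the negative side but none of these passed in edgeR's paired fit. The 7 mitotic kinase and checkpoint genes had medians of -0.34 in the knockdown, -0.49 in active rescue and -0.25 in dead rescue against control, all 7 negative in each, and 0 passed. Among them Bub1b, a spindle checkpoint kinase, was at -0.40 ± 0.19 (adjusted p = 0.339), -0.63 ± 0.19 (adjusted p = 0.116) and -0.48 ± 0.19 (adjusted p = 0.330), and was among the members below control in 5 of 5 pairs in each. The 6 spindle and kinetochore genes had medians of -0.29, -0.36 and -0.20. Of 51 other mitosis genes 48 were tested and 0 passed, with medians of -0.19, -0.33 and -0.13 and 38, 47 and 40 of 48 negative. Of all genes, 52.1%, 53.8% and 50.9% were positive in these comparisons in the paired fit. Top2a was at -0.24 ± 0.18, -0.42 ± 0.18 and -0.23 ± 0.18 and Mki67 at -0.23 ± 0.19, -0.38 ± 0.19 and -0.34 ± 0.19, with adjusted p of 0.325 or more in edgeR's paired fit.

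The difference between active rescue and control varied with number. The median difference of the 40 members from control was -0.38, -0.59, -0.70, 0.03 and -0.0033 in numbers 1 to 5 on the log2 CPM scale. For Top2a the differences were -0.44, -1.08, -1.05, 0.16 and 0.02. The knockdown gave medians of -0.27, 0.0027, -0.20, -0.07 and -0.29, and the dead rescue -0.28, -0.03, -0.10, -0.35 and -0.06. Active against dead rescue gave -0.07, -0.58, -0.56, 0.27 and 0.09, with 15, 3, 2, 30 and 28 members positive. Active rescue was thus below the dead rescue for most members in numbers 2 and 3 and above it for most in numbers 4 and 5. Each number holds 1 library of each group, and the difference between numbers was not tested.

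Libraries of numbers 1 to 3 also differed from those of numbers 4 and 5 in the share of counts on Rn45s, the precursor of ribosomal RNA. It was 2.43 to 7.24% in the libraries of numbers 1 to 3 and 0.206 to 0.611% in those of numbers 4 and 5. Its part in the differences between numbers was not tested. In numbers 1 to 3 alone, the paired fit called 12 members lower in active rescue than in controls, against 1.53% of all genes, and 1 higher (Ccnd1), against 1.44%. The knockdown and the dead rescue each had 1 lower, Rrm2, against 1.44% and 0.484% of all genes. This split was chosen with earlier results of these data known, and it follows the medians just given, so these counts describe those libraries and are no support for a difference. Without number 4 the paired fit called 5 members lower in active rescue (Mcm4, Rrm2, Ccnb1, Bub1b and Kif20a) and 1 higher (Ccnd1), against 2.56% and 2.04% of all genes. Of the 5 fits that left out 1 number, which called 1 to 6 members, this one called the most. Its calls are likewise no support for a difference.

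**Figure D5:**
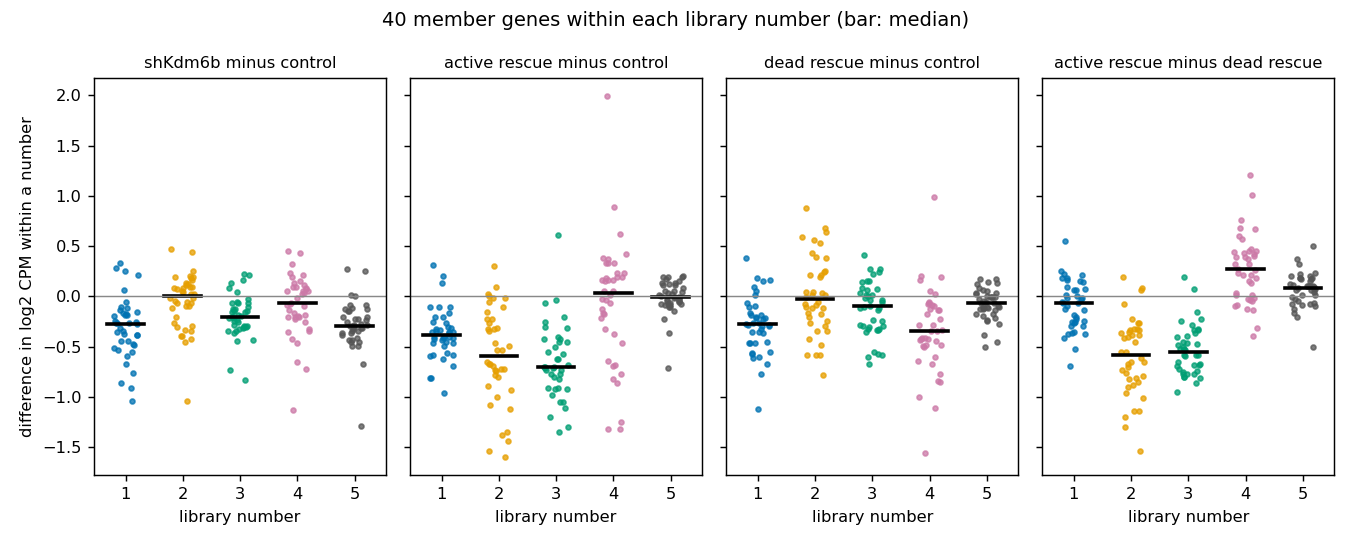
Log2 CPM difference between 2 groups within each library number (x axis) for the 40 members (points), with a bar at their median. Against control, active rescue has medians of -0.38, -0.59 and -0.70 in numbers 1 to 3 and about 0 in numbers 4 and 5.

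The transcription factors of the programme, Foxm1, E2f1 and Mybl2, did not pass. E2f1 stood at 33.5, 38.6, 35.6, 43.6 and 38.3 CPM in controls, 29.5, 36.9, 41.4, 41.7 and 35.2 in the knockdown, 20.7, 30.4, 34.1, 24.7 and 36.2 in active rescue and 27.5, 38.9, 42.9, 32.4 and 35.7 in dead rescue. Active rescue was below control in 5 of 5 pairs, by -0.40 ± 0.11 (adjusted p = 0.0805 in edgeR's paired fit), and the largest differences were in numbers 1 and 4. It passed by DESeq2 with the number (adjusted p = 0.0205), and in the paired fit without active rescue 5 (adjusted p = 0.0367) or without control 3 (adjusted p = 0.0428). The knockdown differed by -0.05 ± 0.11 and the dead rescue by -0.11 ± 0.11. Of 17 other E2F and G1 genes 0 passed.

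The D cyclins had positive fold changes against control in all 3 shRNA groups, though neither passed. In active rescue they were the 2 members of 40 with a positive value in the paired fit. Ccnd1 was at 0.22 ± 0.08 in the knockdown (adjusted p = 0.170), 0.31 ± 0.08 in active rescue (adjusted p = 0.0609) and 0.18 ± 0.08 in dead rescue (adjusted p = 0.446), higher in 5 of 5 pairs in each. Active rescue against control passed by DESeq2 with the number (0.29, adjusted p = 0.0113) and without active rescue 4 (adjusted p = 0.0441). Ccnd2 was at 0.22 ± 0.23, 0.45 ± 0.23 and 0.12 ± 0.23. For the active rescue that value rests on number 4, where Ccnd2 was 1.99 higher than in control 4 on the log2 scale, against -0.16 to 0.21 in the other numbers. For dead rescue the difference was 0.98 in number 4, against -0.35 to 0.15 in the other numbers. For the knockdown it was 0.45 in number 4, against 0.12 to 0.25 in the other numbers. The paired fit gave 0.02 for the knockdown without control 4 and 0.16 without number 4 of every group. Of 16 genes for leaving the cycle, such as the Cdk inhibitors Cdkn1b and Cdkn1c, 0 passed in any comparison, with medians of -0.0025, 0.10 and 0.0046 in the paired fit.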

How the data were processed

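RNA-seq was made in 20 libraries (4 groups, 5 each), and the authors deposited 1 table of estimated counts per gene, which need not be whole numbers (6.22 to 10.2% per library were fractional). Per the submitters' processing notes the genome build was mm10; no source used here gives the aligner or the counter settings. Columns were matched to samples by the descriptions in the labels. Counts were rounded, filtered with filterByExpr (15284 genes kept, 9127 removed), scaled by TMM and fitted over all 20 libraries with edgeR 4.0.16's quasi-likelihood test in R 4.3.3. P-values were adjusted by Benjamini and Hochberg over all tested genes, and a call is an adjusted p under 0.05. Log2 CPM used a prior count of 1. After the main fit, the same functions were run on counts simulated, with known changes, from the fitted means of the paired fit. The simulated spread was that of the paired fit (biological coefficient of variation 0.179), smaller than without the number (0.392). How many changes each fit recovered is not given here. Such counts follow the fitted model, so this does not test how well the model suits these data.

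Replicate numbers shared by the groups were added as a block in the paired fit. The numbers pair the samples by the data. For the same number, deviations from the group means correlated across genes at 0.361 to 0.881 (median 0.608, 30 pairs), every pair above 0.1. For 120 pairs of different number the median was -0.205 and the range -0.581 to 0.572, so the ranges overlap. The biological coefficient of variation was 0.392 without the block and 0.179 with it. No 2 libraries of a group agreed within sampling noise (their chi-square divided by its degrees of freedom was 27.9 or more).

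Alternatives were another scaling (RLE), no filter, DESeq2 1.42.0, the 2 groups of a comparison alone and fits without single libraries or numbers. Values in every library are given for members called in either fit, for Mki67, Top2a, Pcna, Ccnd1, Ccnd2 and Rrm2, and for the most abundant member of each role. Mcm6 and Bub1b were added after their values were seen, and other members are named as extremes or exceptions. The members and gene lists were chosen with earlier results of these data known.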

Additional observations from a re-analysis of the deposited data

How the results depend on the processing

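The 0 members called without the number held under RLE scaling, no filter, DESeq2 without the number, the 2 groups alone and leaving out any library (0 to 0). With the replicate block, knockdown, active rescue and dead rescue against control each had 1, Rrm2, and no other comparison changed. DESeq2 with the block called 1, 6 and 1, the 6 being Rrm2, Ccnd1, Bub1b, Cdc20, Kif20a and E2f1. With the block and without 1 library, the count ranged from 1 to 1 for the knockdown, 1 to 5 for active rescue and 0 to 1 for dead rescue. For active rescue it was 5 without active rescue 5, 3 without active rescue 4 and 2 without control 3, against 1 otherwise. The share of all genes called in the fits without 1 library is not given, so these counts cannot be set against it. Without 1 number of every group, it was 1 to 1, 1 to 6 and 0 to 1, with 6 without number 4. In numbers 1 to 3 alone, a split chosen with earlier results of these data known, it was 1, 13 and 1. Without the block and without 1 library, the median log2 fold change of the members ranged from -0.40 to -0.026 for the knockdown against control (-0.026 without control 3), -0.49 to -0.08 for active rescue and -0.38 to 0.013 for dead rescue (0.013 without dead rescue 2). It ranged from -0.31 to 0.12 for active rescue against knockdown, -0.14 to 0.18 for dead rescue against knockdown and -0.37 to 0.09 for active against dead rescue. The members differing among numbers were 40 by RLE and DESeq2 and 39 or 40 without 1 library. The cause of these differences was not tested. Groups of 5 libraries that differ this much by number limit the fits without the block, and 1 library per group and number leaves no replicate within a number.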
